A study of Mus musculus with 11 samples.

Results

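Genes of the synaptic vesicle and of exocytosis were compared among 3 groups of sorted embryonic mouse motor neurons. They were chosen by name: every gene with 1 annotated symbol that belongs to the synaptotagmins, synapsins, Snap, Vamp, syntaxin, syntaxin-binding, complexin, SV2, Cadps, Unc13 or Rims families, starts with Rab3, or is Syp or Synpr. This gave 89 of the 18193 genes on the array. Where a gene had several probe sets (groups of probes that each report 1 transcript), the one with the highest mean over all arrays was used. The prefix Rab3 also takes in 12 Rab GTPases numbered in the thirties, which are not Rab3 proteins, and 4 regulators of Rab3.

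Transmitter release starts when a vesicle docks at the active zone. The vesicle SNARE proteins (Vamp) and the SNAREs of the target membrane (syntaxins and Snap25) zip together after Unc13 and Rims proteins have prepared, or primed, the vesicle; synaptotagmins sense calcium, and complexins hold the assembled SNAREs until it enters. Cadps proteins prime dense-core vesicles, which carry peptides and amines, and motor neurons use the same machinery to release acetylcholine at the neuromuscular junction.

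All 11 arrays came from embryos of the C57/BL6 strain that carried the Hb9::GFP reporter, in which the promoter of Hb9 (Mnx1), a motor neuron homeobox gene, drives green fluorescent protein. The age of the embryos is not given in the labels. Trunk explants were given a rhodamine-coupled dextran through the phrenic nerve, which supplies the diaphragm, or the radial nerve of the forelimb, and cells were sorted by fluorescence from dissociated spinal cord. The groups were phrenic motor neurons (4 arrays), C3-C5 motor neurons labelled as GFP only (4 arrays) and radial motor neurons of the lateral motor column, here LMC radial (3 arrays). The sample descriptions call the C3-C5 cells rhombomere cells, which differs from their titles, and the LMC radial labels name no segment. Nothing in the labels ties replicates to separate embryos, and the p-values therefore measure only the variation among these arrays, which may be technical. Values are log2 expression after RMA, a standard background correction, normalisation and summary of Affymetrix probes, and a difference of 1 is a doubling. In such bulk samples, fewer cells of a type and less RNA per cell cannot be told apart.

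All 10 motor neuron markers had a mean above 5 on the log2 scale in phrenic and C3-C5 cells and 8 of 10 did in LMC radial cells, where Chat (4.92) and Slc5a7 (4.89), the choline acetyltransferase and choline transporter genes, lay below it. The motor neuron homeobox genes Isl1 and Mnx1 were lower in LMC radial than in both other groups, with Isl1 at 12.32 in phrenic, 11.99 in C3-C5 and 9.63 in LMC radial cells. Isl2 was highest in C3-C5 cells, at 6.79, 7.78 and 6.73, and passed against each of the others. The level of 5 is used here as a line below which probe sets are dim; the table holds no detection calls. Markers of mesenchyme, averaged over 14 genes, reached 6.44 ± 0.72 (mean ± SD over 4 arrays) in the phrenic group, 4.97 ± 0.20 (4 arrays) in the C3-C5 group and 6.00 ± 0.62 (3 arrays) in the LMC radial group; later errors of levels are SDs over the same arrays. Their summed linear level ran from 873 to 3544, from 648 to 895 and from 1045 to 2331, and Fn1, Postn and Foxc1 were higher in phrenic than in C3-C5 cells with an adjusted p under 0.05, while 0 of the 14 passed in the other 2 pairwise comparisons (3 and 7 at an unadjusted p under 0.05 in limma, for phrenic minus LMC radial and LMC radial minus C3-C5). Of the 14 genes 11, 6 and 10 averaged above 5 in phrenic, C3-C5 and LMC radial cells, among them Col1a1, a collagen gene, at 8.57, 6.14 and 7.56. Lum, a fibroblast gene, averaged 3.30, 2.63 and 3.00. Sox9 (8.1, 8.2 and 9.2), Col5a1 (5.53, 4.85 and 5.81) and Col2a1 (6.57, 5.17 and 6.61) were highest in LMC radial cells. The rest of the 14 were highest in phrenic cells. Sox9 was the brightest of the 14 in C3-C5 and LMC radial cells. Markers of glia and progenitors (10 genes) averaged 6.54 ± 0.58, 5.93 ± 0.06 and 6.23 ± 0.17, with summed levels from 4255 to 7607, from 4575 to 5621 and from 4251 to 5355, and Slc1a3, a glial glutamate transporter gene, was higher in phrenic than in C3-C5 cells. Interneuron markers (10 genes) averaged 5.03 ± 0.63, 4.44 ± 0.10 and 4.52 ± 0.33, with summed levels from 403 to 2061, from 317 to 418 and from 249 to 569, and 0 passed in a pairwise comparison in limma (3, 3 and 2 at an unadjusted p under 0.05). The part of the glia and interneuron markers in the results was not tested. The Actb probe sets, which compare the 3′ and 5′ ends of a transcript, differed by 1.71 ± 0.48, 1.53 ± 0.43 and 1.06 ± 0.06 in phrenic, C3-C5 and LMC radial arrays. By the 25th percentile of their values the arrays fell into a lower set (replicates 2 and 3 of the phrenic and of the C3-C5 arrays) and a higher set (the other 7, with all LMC radial arrays).

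The differences farthest from 0 were those of Cadps2 and Synpr, highest in phrenic and lowest in LMC radial cells. Of the 89 genes, 74 (83.1%) had a mean above 5, against 57.3% of all genes. Between phrenic and C3-C5 cells 6 of 89 (6.74%) had an adjusted p under 0.05, 4 higher and 2 lower in phrenic cells, against 2.74% of all genes (1.43% higher, 1.31% lower) and 4.04% of genes with a mean above 5. Between phrenic and LMC radial cells 10 passed (11.2%), 5 higher and 5 lower in phrenic cells, against 6.88% (3.88% higher, 3.00% lower) and 8.57%. Between LMC radial and C3-C5 cells 7 passed (7.87%), 2 higher and 5 lower in LMC radial cells, against 3.73% (1.70% higher, 2.03% lower) and 3.81%. The study's design text describes a comparison of each cell type with overall expression. Here each type was set against the mean of the other 2 instead. Of the 89 genes 8 passed for phrenic cells (7 higher, 1 lower; 4.86% of all genes, 3.08% higher and 1.79% lower). For LMC radial cells 11 passed (3 higher, 8 lower; 7.07% of all genes, 3.40% higher and 3.67% lower), and for C3-C5 cells 2 passed, both higher (1.20% of all genes, 0.890% higher and 0.313% lower). In total 13 genes (14.6%) passed in at least 1 of the 3 pairwise comparisons, against 8.9% of all genes and 10.9% of those above 5, and 76 passed in none of those 3. The median difference over the 89 genes was 0.00 for phrenic minus C3-C5, 0.13 for phrenic minus LMC radial and -0.13 for LMC radial minus C3-C5. Over all genes it was 0.0066, -0.0048 and 0.0059, and over genes with a mean above 5 it was -0.0238, 0.0708 and -0.0874. With each array centred on its median the last 2 comparisons gave 0.04 and -0.04 over the 89 genes. Over all genes they then gave -0.10 and 0.10, and over genes above 5 -0.0201 and 0.0032. In the same 3 comparisons the arrays of the 2 types did not overlap for 12.4%, 23.6% and 23.6% of the 89 genes. Over all genes these shares were 9.29%, 19.3% and 22.9%, so arrays that do not overlap are common. The comparisons share arrays, so their calls are not independent. Of the 23 calls between 2 types, 9 did not pass with the mesenchyme mean as a covariate and 7 did not pass with the Actb difference. With the array set (lower or higher) as a term 4 did not pass. Over all tested probe sets the mesenchyme covariate changed the calls from 882 to 173 for phrenic minus C3-C5. For phrenic minus LMC radial they went from 2979 to 2446, and for LMC radial minus C3-C5 from 1694 to 500. A call lost with a covariate does not by itself mean a smaller difference.

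**Figure D1:**
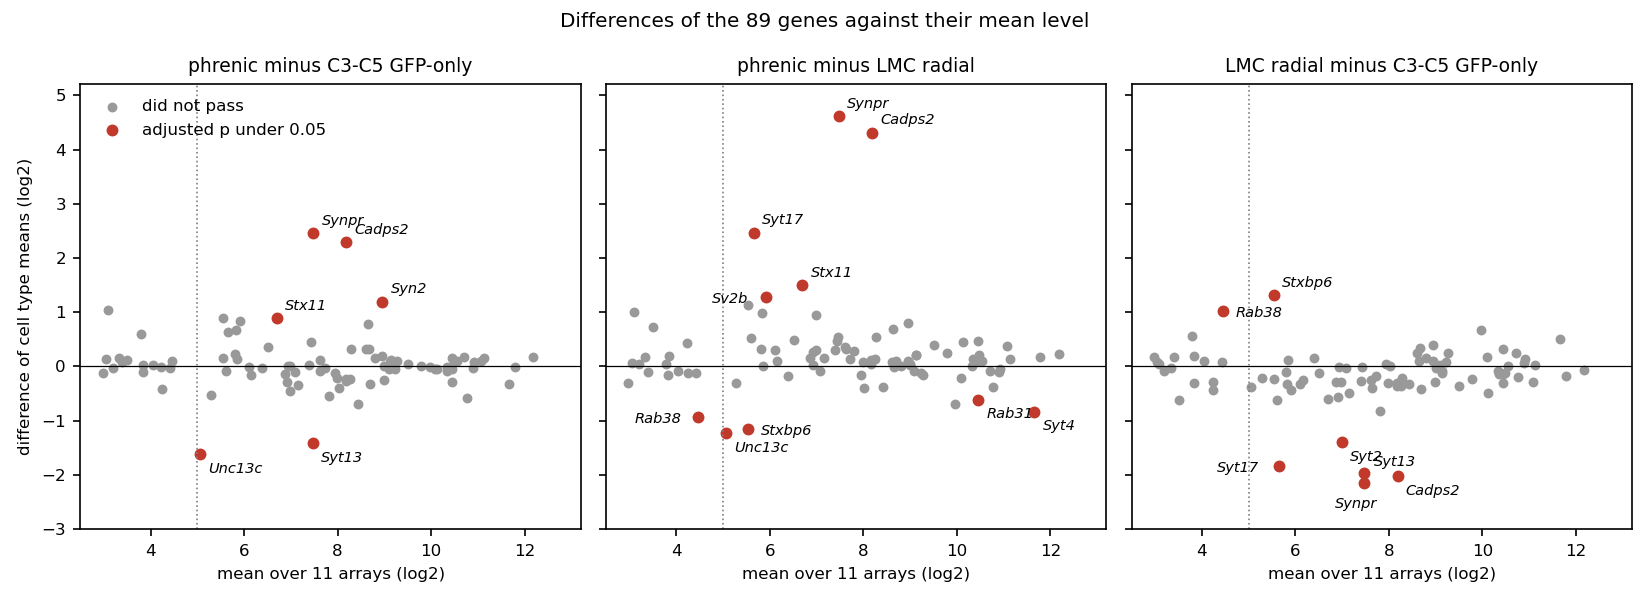
Difference between 2 cell type means (vertical axis, log2) against the mean over 11 arrays (horizontal axis, log2) for the 89 genes, 1 panel per comparison; red points have an adjusted p under 0.05 and the dotted line marks a level of 5. Cadps2 and Synpr lie farthest from 0 in the first 2 panels, at 2.29 and 2.46 for phrenic minus C3-C5 and 4.31 and 4.62 for phrenic minus LMC radial, and most points lie close to 0.

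Of the 10 priming factors Cadps2 fell stepwise over the groups. It encodes CAPS2, which primes dense-core vesicles. In order of replicate number, here and below, the phrenic arrays read 10.31, 10.19, 10.25 and 10.03, the C3-C5 arrays 7.97, 7.66, 7.92 and 8.07, and the LMC radial arrays 5.78, 5.74 and 6.12. The 3 groups did not overlap: every phrenic array was above every C3-C5 array, and every C3-C5 array was above every LMC radial array. Cadps2 was 4.9-fold higher in phrenic than in C3-C5 cells (log2 difference 2.29 ± 0.13, SE, adjusted p = 1.13e-05) and 19.9-fold higher than in LMC radial cells (4.31 ± 0.14, adjusted p = 1.03e-07). LMC radial cells were 4.06-fold below C3-C5 cells (-2.02 ± 0.14, adjusted p = 4.75e-05). All 3 calls held under every alternative tried. With the mesenchyme mean as a covariate the phrenic minus C3-C5 difference was 2.56 (adjusted p = 0.00149).

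Synpr, which encodes synaptoporin, a vesicle membrane protein related to synaptophysin, followed the same order. Its phrenic arrays read 10.09, 9.79, 9.84 and 8.81, its C3-C5 arrays 6.39, 7.50, 7.46 and 7.34, and its LMC radial arrays 4.89, 5.67 and 4.48. Replicate 4 was the lowest phrenic array, yet it stayed above all C3-C5 arrays, and the LMC radial arrays were below these. Synpr was 5.51-fold higher in phrenic than in C3-C5 cells (2.46 ± 0.35, adjusted p = 0.00439). It was 24.6-fold higher than in LMC radial cells (4.62 ± 0.38, adjusted p = 5.18e-05), or 21.3-fold with values below 5 raised to 5. The difference of LMC radial minus C3-C5 was -2.16 ± 0.38 (adjusted p = 0.0118), and it missed the threshold without LMC radial replicate 1 (adjusted p = 0.0509), with values raised to 5 (0.0751) and with the mesenchyme covariate (0.0749). With the mesenchyme mean as a covariate the phrenic minus C3-C5 difference was 2.35 but no longer passed (adjusted p = 0.187). Cadps2 and Synpr are each read by a single probe set.

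Their closest relatives were not called in any pairwise comparison. Cadps, which encodes CAPS1, averaged 10.31 ± 0.18 in phrenic, 10.38 ± 0.07 in C3-C5 and 10.29 ± 0.06 in LMC radial arrays. Syp, which encodes synaptophysin, averaged 10.64 ± 0.21, 10.48 ± 0.24 and 10.17 ± 0.06. The differences between Cadps2 and Cadps, and between Synpr and Syp, were not tested.

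The 250 bases upstream of the annotated starts of these 4 genes are shown because each pair encodes related proteins, of which 1 passed and the other did not. They come from RefSeq promoters on GRCm38.p6, in which 70 of the 89 genes were found, and run 5′ to 3′ on the gene's strand. Capitals mark GC boxes (GGGCGG on either strand, found in 32.7% of 32851 promoters of this length). Synpr has 2 annotated starts, and the array does not tell them apart. Cadps2 lies at chr6:23839422-23839671 (minus strand), Cadps at chr14:12823080-12823329 (minus strand), Synpr at chr14:13284530-13284779 and chr14:13453708-13453957 (plus strand), and Syp at chrX:7638330-7638579 (plus strand).
Cadps2: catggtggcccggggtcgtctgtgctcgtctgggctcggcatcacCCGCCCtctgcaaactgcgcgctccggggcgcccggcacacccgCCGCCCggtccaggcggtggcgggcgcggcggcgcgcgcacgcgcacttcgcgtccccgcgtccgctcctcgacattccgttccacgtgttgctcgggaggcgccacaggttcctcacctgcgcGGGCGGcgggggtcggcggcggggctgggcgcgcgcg
Cadps: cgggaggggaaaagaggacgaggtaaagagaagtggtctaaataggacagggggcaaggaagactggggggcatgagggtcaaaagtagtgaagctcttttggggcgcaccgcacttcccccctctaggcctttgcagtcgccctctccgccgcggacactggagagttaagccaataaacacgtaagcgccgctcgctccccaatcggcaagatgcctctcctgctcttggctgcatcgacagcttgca
Synpr, first start: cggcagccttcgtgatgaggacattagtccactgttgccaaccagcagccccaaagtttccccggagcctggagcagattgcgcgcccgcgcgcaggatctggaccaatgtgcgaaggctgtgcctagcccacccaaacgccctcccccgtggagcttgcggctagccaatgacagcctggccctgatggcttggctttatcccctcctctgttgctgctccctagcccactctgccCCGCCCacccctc
Synpr, second start: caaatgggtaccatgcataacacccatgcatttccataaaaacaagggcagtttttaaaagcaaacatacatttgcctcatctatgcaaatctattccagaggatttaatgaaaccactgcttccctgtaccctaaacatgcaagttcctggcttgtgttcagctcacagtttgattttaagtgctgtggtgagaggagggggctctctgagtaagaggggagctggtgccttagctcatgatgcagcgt
Syp: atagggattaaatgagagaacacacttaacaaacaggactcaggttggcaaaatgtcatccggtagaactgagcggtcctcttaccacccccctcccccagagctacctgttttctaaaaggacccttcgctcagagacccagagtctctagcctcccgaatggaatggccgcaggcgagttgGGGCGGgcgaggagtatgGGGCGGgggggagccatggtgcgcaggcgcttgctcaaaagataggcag

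The Cadps2 stretch is 78.0% G and C with 44 CpG dinucleotides and 3 GC boxes, and the Cadps stretch is 58.0% G and C with 14 CpG and no GC box. The first Synpr start has 64.0% and 13 CpG with 1 GC box, the second 44.4% and 1 CpG with none, and Syp 56.4% and 11 CpG with 2. The median over all promoters is 52.4% and 6 CpG. A cAMP response element (TGACGTCA, in 1.55% of promoters), a homeodomain core (TAATTA, 4.84%), a Hox-Pbx site (TGATTNAT, 2.82%) and a TATA box (TATAAA, 12.4%), searched on both strands, were found in none of the 5. These are descriptions of letters in a window and say nothing of which factors bind.

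**Figure D2:**
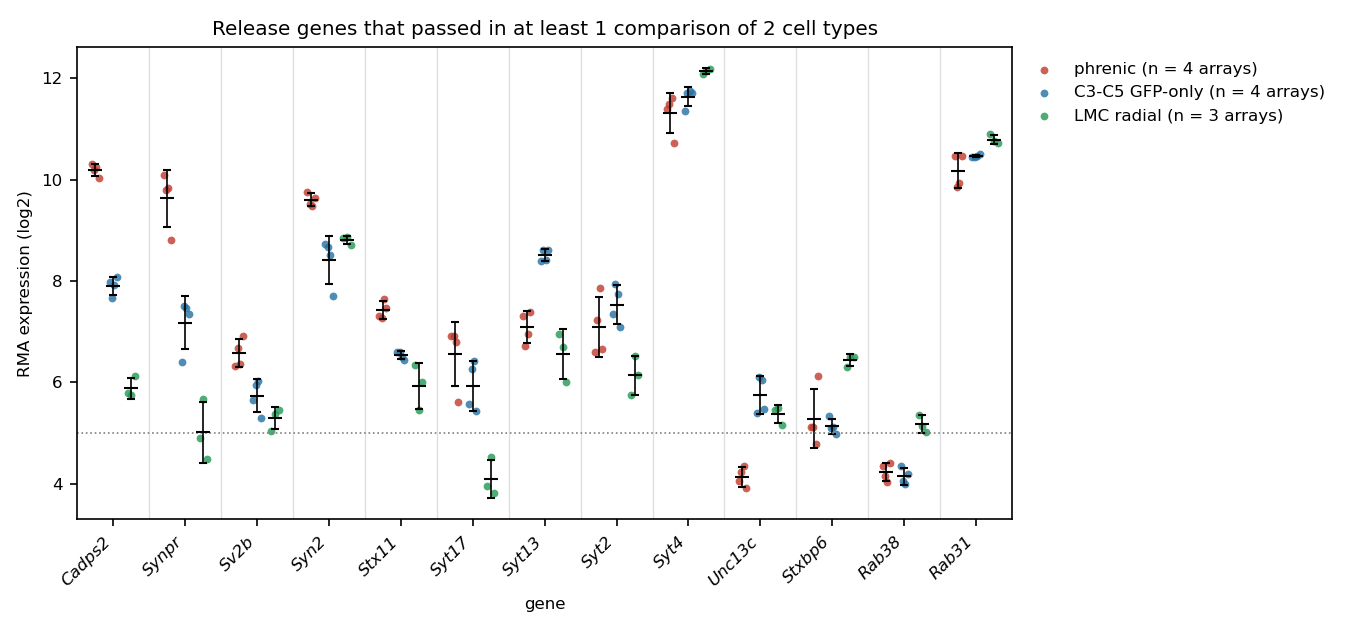
RMA expression (vertical axis, log2) of the 13 genes with an adjusted p under 0.05 in at least 1 comparison of 2 cell types; points are arrays coloured by cell type, bars the mean ± SD and the dotted line a level of 5. Cadps2 and Synpr step down from phrenic to C3-C5 to LMC radial cells without overlap, while Unc13c is lowest in phrenic cells and Stxbp6 and Rab38 are highest in LMC radial cells.

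Among the other priming factors Unc13c was lowest in phrenic cells. It encodes a Munc13 protein, which opens syntaxin for SNARE assembly. Its phrenic arrays read 4.04, 4.22, 4.35 and 3.91, all below the dim level, while C3-C5 arrays read 5.39, 6.11, 6.03 and 5.46 and LMC radial arrays 5.45, 5.49 and 5.16. Every phrenic array was below every other array. Unc13c was at least 1.68-fold lower in phrenic than in C3-C5 cells (-1.62 ± 0.18, adjusted p = 0.00109) and at least 1.29-fold lower than in LMC radial cells (-1.24 ± 0.20, adjusted p = 0.00436), with the bounds set by raising dim values to 5. On values so raised neither call held (adjusted p = 0.108 and 0.568).

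Rims1, an active zone scaffold that binds Rab3, averaged 9.12 ± 0.46 in phrenic, 8.33 ± 0.21 in C3-C5 and 8.42 ± 0.11 in LMC radial arrays. It passed in no pairwise comparison, but against the mean of the other 2 types it was higher in phrenic cells by 0.74 ± 0.18 (adjusted p = 0.0497). That call was lost when any 1 array was left out except phrenic replicate 4, with adjusted p up to 0.119. Its second probe set was higher in phrenic than in LMC radial cells by 0.83 (adjusted p = 0.0063). Unc13b, a Munc13 named after its values were seen, was lower in LMC radial cells than the mean of the others by 0.47 ± 0.12 (adjusted p = 0.0442), and lost the call in 9 of the 11 fits that left out 1 array. Unc13a, the main Munc13 of many synapses, averaged 7.69 ± 0.31, 7.77 ± 0.20 and 7.37 ± 0.25 and passed in no pairwise comparison.

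Among vesicle membrane proteins Sv2b was higher in phrenic than in LMC radial cells. SV2 proteins are glycoproteins of the vesicle membrane. The phrenic arrays read 6.33, 6.68, 6.36 and 6.91, the C3-C5 arrays 5.66, 5.94, 6.03 and 5.30, and the LMC radial arrays 5.04, 5.37 and 5.46. Phrenic arrays were above all others, and C3-C5 and LMC radial arrays overlapped. The difference was 1.28 ± 0.20 against LMC radial cells (2.43-fold, adjusted p = 0.00421), and 0.99 with the Actb difference as a covariate (adjusted p = 0.0513). Against C3-C5 cells it was 0.84 ± 0.19 and just missed the threshold (adjusted p = 0.0512). A second Sv2b probe set gave 1.62 for phrenic minus LMC radial (adjusted p = 0.000602), and -1.49 for LMC radial minus C3-C5 (adjusted p = 0.0024), where the first gave -0.44 (adjusted p = 0.257). Sv2a averaged 8.78 ± 0.50, 8.45 ± 0.45 and 8.80 ± 0.21, and Sv2c averaged below 5 in all 3 groups.

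Synapsins tether vesicles in the reserve pool. Syn2 read 9.76, 9.52, 9.48 and 9.64 in phrenic arrays, 8.73, 8.67, 8.51 and 7.71 in C3-C5 arrays and 8.86, 8.86 and 8.71 in LMC radial arrays. Phrenic arrays were above all others, and replicate 4 was the lowest of the C3-C5 arrays. Syn2 was 2.29-fold higher in phrenic than in C3-C5 cells (1.20 ± 0.20, adjusted p = 0.0108). Against LMC radial cells the difference was 0.80 ± 0.22 (adjusted p = 0.0523). A second Syn2 probe set with a mean above 5 gave 0.73 for phrenic minus C3-C5 (adjusted p = 0.0992). With the mesenchyme mean as a covariate the first gave 1.13 in that comparison, and its call did not hold (adjusted p = 0.302). Syn1 averaged 9.63 ± 0.36, 9.59 ± 0.29 and 9.23 ± 0.04 and did not pass.

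Of 14 syntaxins 1, Stx11, passed in a pairwise comparison, where 8.9% of all genes did and 10.9% of those above 5. A set of 14 cannot tell 1 from that share. Stx11 is best known from the release of cytotoxic granules in lymphocytes. It read 7.30, 7.28, 7.65 and 7.47 in phrenic arrays, 6.61, 6.59, 6.50 and 6.45 in C3-C5 arrays and 6.33, 5.45 and 6.00 in LMC radial arrays. The 3 groups did not overlap. Phrenic cells were 2.82-fold above LMC radial cells (1.50 ± 0.18, adjusted p = 0.000852) and 1.85-fold above C3-C5 cells (0.89 ± 0.17, adjusted p = 0.0242). LMC radial minus C3-C5 was -0.61 ± 0.18 and did not pass (adjusted p = 0.0979). The call against C3-C5 cells was lost without phrenic replicate 3 or any 1 C3-C5 array (adjusted p up to 0.081). It was lost with the mesenchyme mean as a covariate, where the difference was 0.84 (adjusted p = 0.405). It was also lost with values raised to 5 (0.0645). All Stx11 arrays are above 5, so raising left the difference at 0.89. Only the adjusted p changed, through the other probe sets of the fit. A second Stx11 probe set gave 0.12 (adjusted p = 0.931) in that comparison.

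Stxbp6, or amisyn, carries a SNARE motif and binds syntaxin and Snap25. It read 5.12, 5.11, 4.78 and 6.12 in phrenic arrays, 5.33, 5.09, 5.12 and 4.97 in C3-C5 arrays and 6.31, 6.50 and 6.50 in LMC radial arrays. All LMC radial arrays were above the other 8, with phrenic replicate 4 close below. LMC radial cells were 2.48-fold above C3-C5 cells (1.31 ± 0.26, adjusted p = 0.02) and 2.23-fold above phrenic cells, where phrenic minus LMC radial was -1.16 ± 0.26 (adjusted p = 0.0222). Leaving out any 1 LMC radial array ended both calls. Leaving out phrenic replicate 2 ended the second, and C3-C5 replicate 2, 3 or 4 the first, with adjusted p up to 0.0792 and 0.071. Both were also lost with values raised to 5 (0.0704 and 0.0741) and with the Actb covariate (0.0718 and 0.108). With the array set as a term neither passed (0.0644 and 0.068), and the first was lost with the mesenchyme covariate (0.159).

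Of 16 synaptotagmins 4 passed in at least 1 pairwise comparison, where 8.9% of all genes did and 10.9% of those above 5. Syt13, an atypical member that lacks the residues that bind calcium, was highest in C3-C5 cells, at 8.40, 8.62, 8.42 and 8.61, against 7.31, 6.72, 6.96 and 7.40 in phrenic and 6.96, 6.70 and 6.00 in LMC radial arrays. C3-C5 arrays were above all others, and the other groups overlapped. Phrenic minus C3-C5 was -1.42 ± 0.21 (adjusted p = 0.00584) and LMC radial minus C3-C5 was -1.96 ± 0.23 (adjusted p = 0.00152). Both calls were lost in the 7 arrays with the higher 25th percentile (adjusted p = 0.217 and 0.0734), where fewer samples are fitted. A second Syt13 probe set, at a mean of 3.01, gave 0.02 and -0.05 and did not pass. Syt13 and Unc13c were the only 2 of the 89 genes that passed for C3-C5 cells against the mean of the others. Both were higher there, and the share over all genes was 1.20%. For Unc13c the C3-C5 and LMC radial arrays overlapped (means 5.75 and 5.37, against 4.13 in phrenic cells). Its LMC radial minus C3-C5 difference did not pass (-0.38, adjusted p = 0.311).

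Syt17, a double C2-domain protein, was low in LMC radial cells. It read 6.92, 6.91, 6.79 and 5.61 in phrenic arrays, 5.57, 6.27, 6.43 and 5.44 in C3-C5 arrays, and 3.94, 4.52 and 3.82 in LMC radial arrays, all of these below 5. Phrenic and C3-C5 arrays overlapped and both were above LMC radial arrays. Syt17 was at least 2.94-fold higher in phrenic than in LMC radial cells (2.47 ± 0.35, adjusted p = 0.00221) and at least 1.9-fold higher in C3-C5 than in LMC radial cells (LMC radial minus C3-C5 -1.84 ± 0.35, adjusted p = 0.019). The second call was lost without C3-C5 replicate 2 or 3 or LMC radial replicate 1 or 3 (adjusted p up to 0.073), and with the Actb (0.089) or the mesenchyme covariate (0.14), and neither held with values raised to 5 (adjusted p = 0.0842 and 0.493).

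Syt2, a fast calcium sensor found at neuromuscular terminals, read 6.59, 7.22, 7.87 and 6.66 in phrenic arrays, 7.34, 7.94, 7.75 and 7.09 in C3-C5 arrays and 5.75, 6.52 and 6.14 in LMC radial arrays. LMC radial arrays were below the others. LMC radial minus C3-C5 was -1.40 ± 0.32 (adjusted p = 0.039), and the call was lost in 7 of 11 fits that left out 1 array: without phrenic replicate 2, without C3-C5 replicate 1, 2 or 3 or without any LMC radial array (adjusted p up to 0.141). It was also lost with the Actb covariate (0.145), the mesenchyme covariate (0.127), the array set as a term (0.0584) and quantile normalisation (0.071). Values raised to 5, which left its own unchanged, ended it too (0.18). Syt4, which is found on dense-core vesicles, was lower in phrenic cells, at 11.40, 11.49, 11.61 and 10.73, than in LMC radial cells, at 12.09, 12.15 and 12.19. The C3-C5 arrays ran from 11.36 to 11.76 and overlapped the phrenic arrays. Phrenic minus LMC radial was -0.84 ± 0.19 (adjusted p = 0.0279). The call was lost without any 1 LMC radial array (adjusted p up to 0.0913) and with the Actb (0.135) or the mesenchyme covariate (0.0632). It was also lost with values raised to 5 (0.0891), which left its own values unchanged. Syt1, the main fast calcium sensor of forebrain synapses, averaged 9.21 ± 0.08, 9.14 ± 0.12 and 9.01 ± 0.02 and did not pass on the probe set used.

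Of the Rabs numbered in the thirties, Rab38, which acts in lysosome-related organelles such as melanosomes, was higher in LMC radial cells (5.36, 5.14 and 5.02) than in phrenic (4.35, 4.15, 4.02 and 4.41) and C3-C5 cells (4.35, 4.04, 3.98 and 4.19). LMC radial arrays were just above the dim level and the other 8 below it, so its fold was at least 1.13 in each comparison (adjusted p = 0.00281 and 0.00327, log2 differences -0.94 ± 0.14 for phrenic minus LMC radial and 1.03 ± 0.14 for LMC radial minus C3-C5). On values raised to 5 neither call held (adjusted p = 0.33 and 0.45). Rab31, a Rab of the endosome and Golgi, read 10.48, 9.85, 9.93 and 10.47 in phrenic and 10.90, 10.76 and 10.72 in LMC radial arrays. Phrenic minus LMC radial was -0.61 ± 0.16 (adjusted p = 0.0481). That call was lost in 9 of 11 fits that left out 1 array, all except those without phrenic replicate 1 or 4 (adjusted p up to 0.151). It was also lost under quantile normalisation (0.0512), with the array set as a term (0.112) and with the Actb (0.298) or the mesenchyme covariate (0.0543). Values raised to 5, which left its own unchanged, ended it too (0.12). Of the 4 Rab3 GTPases 0 passed in limma on the probe set used, with 2, 2 and 0 at an unadjusted p under 0.05 in the 3 comparisons. Of the 4 Rab3 regulators 0 passed, with 1, 0 and 0. Sets of 4 cannot tell 0 from the 8.9% of all genes that passed in at least 1 pairwise comparison. With the replicate number as a block Rab3c, a Rab3 GTPase, was lower in phrenic than in C3-C5 cells (-0.59, adjusted p = 0.0392, against 0.0988 without it). Another Rab3c probe set passed in that comparison without the block (-0.83, adjusted p = 0.0197). A second probe set of Rab3ip, a Rab exchange factor, passed for phrenic minus C3-C5 (-0.92, adjusted p = 0.0183) and for LMC radial minus C3-C5 (-0.86, adjusted p = 0.0277), and a second one of Rab3il1, at a mean of 2.74, for LMC radial minus C3-C5 (0.48, adjusted p = 0.048).

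**Figure D3:**
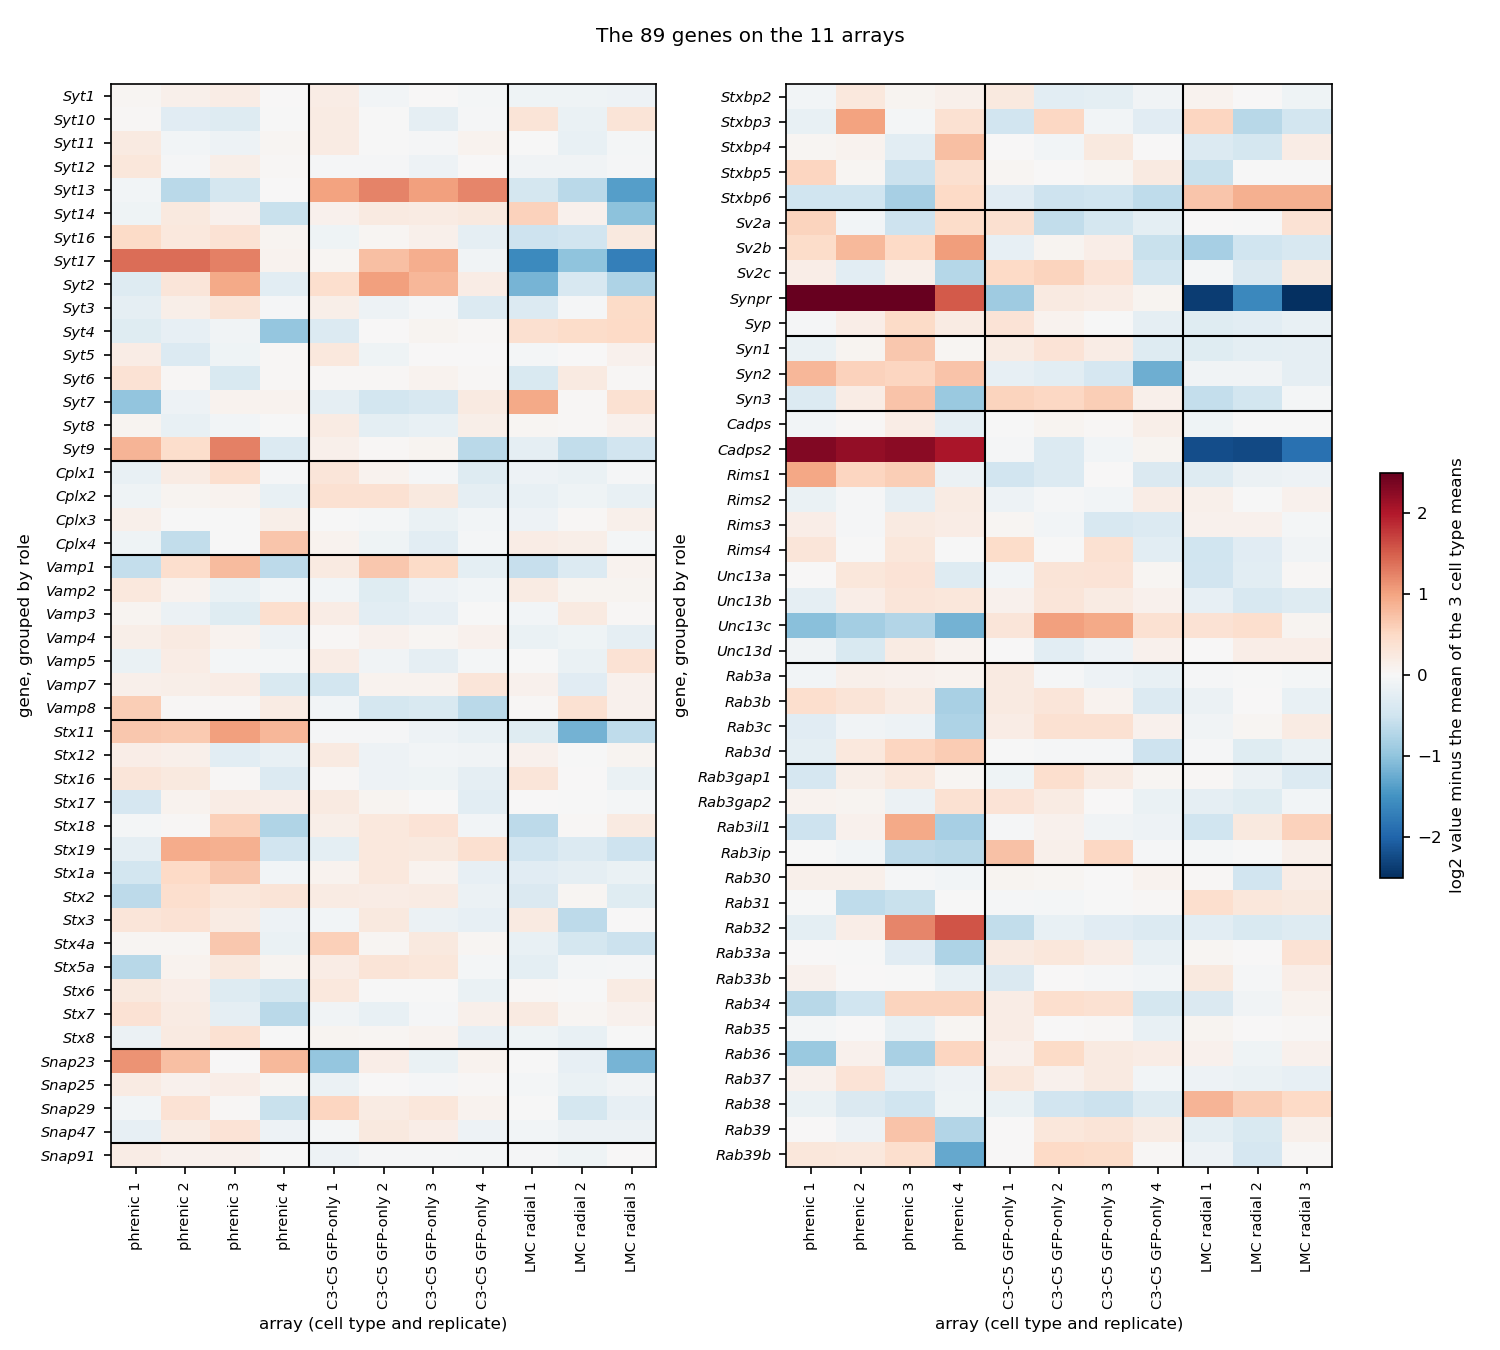
Expression of the 89 genes (rows, grouped by role) on the 11 arrays (columns, by cell type and replicate); colour is the log2 value minus the mean of the 3 cell type means. The largest steps between columns are those of Cadps2 and Synpr; genes such as Snap25, Syt1 and Cadps stay near 0 on all arrays.

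The core genes are a list, chosen by hand with earlier results known, of main proteins of vesicles, SNARE fusion, priming and Rab3. Of 22 core genes, 6 passed in a pairwise comparison (Synpr, Syn2, Syt2, Syt4, Sv2b and Cadps2) and 16 did not, where 8.9% of all genes and 10.9% of those above 5 passed. Among the 16, Snap25 averaged 12.30 ± 0.07, 12.13 ± 0.08 and 12.07 ± 0.06 in phrenic, C3-C5 and LMC radial arrays, Stx1a 11.22 ± 0.52, 11.11 ± 0.19 and 10.83 ± 0.06, and Rab3a 10.61 ± 0.09, 10.51 ± 0.18 and 10.51 ± 0.02. Vamp2, the vesicle SNARE of fast release, averaged 10.74 ± 0.19, 10.58 ± 0.11 and 10.84 ± 0.08. Vamp1, a vesicle SNARE of motor terminals, averaged 6.89 ± 0.73, 7.18 ± 0.39 and 6.62 ± 0.33, and Cplx1 10.57 ± 0.26, 10.49 ± 0.27 and 10.37 ± 0.06. A missed threshold does not show equal levels. Differences among the 16 ran from -0.59 (Rab3c) to 0.79 (Rims1) for phrenic minus C3-C5, from -0.38 (Rab3c) to 0.70 (Rims1) for phrenic minus LMC radial, and from -0.56 (Vamp1) to 0.34 (Sv2a) for LMC radial minus C3-C5. Of 4 complexins, 7 Vamp and 4 Snap SNARE genes 0 passed in limma on the probe set used. Sets this small cannot tell 0 from the 8.9% of all genes. Counts at an unadjusted p under 0.05 follow in the order phrenic minus C3-C5, phrenic minus LMC radial and LMC radial minus C3-C5. They were 0, 0 and 1 for complexins, 1, 1 and 2 for Vamp, and 1, 2 and 1 for Snap genes. Second probe sets of Rab3c, Cplx2, Vamp7 and Syt1 did pass in at least 1, for example Rab3c with -1.10 and Cplx2 with 1.56 for phrenic minus LMC radial (adjusted p = 0.00305 and 0.0218), so for these genes the result depends on the probe set.

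**Figure D4:**
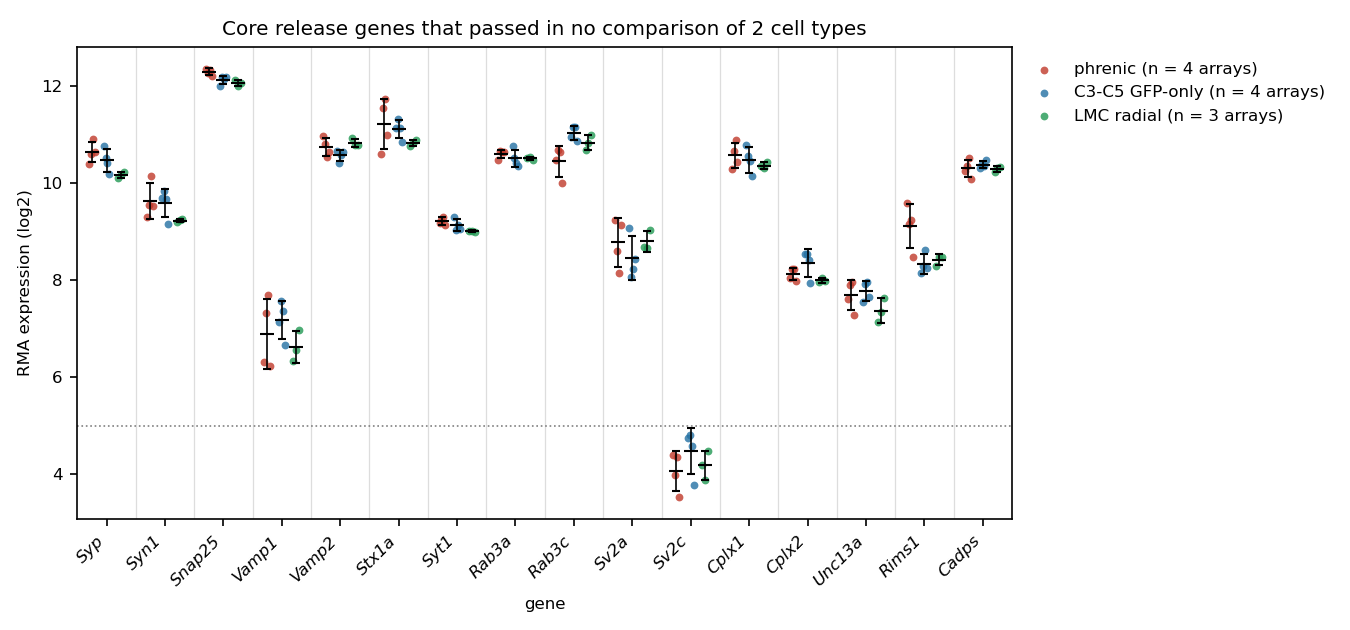
RMA expression (vertical axis, log2) of the 16 core release genes that passed in no comparison of 2 cell types; points are arrays, bars the mean ± SD and the dotted line a level of 5. The 3 cell types overlap or lie close together for most genes, and Sv2c is below 5 in all of them.

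The 60 remaining genes that passed in no pairwise comparison ranged from -0.69 (Rab3ip) to 1.04 (Rab32) for phrenic minus C3-C5, from -0.68 (Syt7) to 1.12 (Snap23) for phrenic minus LMC radial, and from -0.82 (Syn3) to 0.66 (Syt7) for LMC radial minus C3-C5. Rab32 was below 5 in all 3 groups. Snap23, a Snap25 relative expressed in many tissues, averaged 6.18, 5.28 and 5.05.

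Other genes of the pathway were taken from lists outside the 89. Their counts stand against 2.74% of all genes for phrenic minus C3-C5, 6.88% for phrenic minus LMC radial and 3.73% for LMC radial minus C3-C5. Of 20 genes of the active zone scaffold and SNARE disassembly, 3 passed between phrenic and C3-C5 cells (1 higher, 2 lower), 1 between phrenic and LMC radial cells (lower) and 0 between LMC radial and C3-C5 cells in limma, where 3 had an unadjusted p under 0.05. Rph3a, which encodes the Rab3 effector rabphilin, passed in both comparisons with phrenic cells. Its phrenic arrays read 5.02, 5.99, 6.36 and 4.77, its C3-C5 arrays 8.28, 8.32, 8.27 and 7.97 and its LMC radial arrays 8.73, 8.54 and 8.63. Phrenic minus C3-C5 was -2.67 ± 0.30 (6.37-fold lower, adjusted p = 0.00101) and phrenic minus LMC radial -3.10 ± 0.32 (8.56-fold lower, adjusted p = 0.000273). With the mesenchyme mean as a covariate the first was -2.44 and did not pass (adjusted p = 0.104). Phrenic cells also had more Erc1 (0.50, adjusted p = 0.0405) and less Rimbp2 (-0.71, adjusted p = 0.0212) than C3-C5 cells, both active zone scaffold genes. The Rimbp2 call was lost without phrenic replicate 1 or C3-C5 replicate 1, 2 or 3 (adjusted p up to 0.0671), and the Erc1 call was lost in 10 of 11 fits that left out 1 array, all but the one without phrenic replicate 4 (adjusted p up to 0.12), and with the replicate block (0.0632). Neither held with the mesenchyme covariate, where Rimbp2 gave -0.69 (adjusted p = 0.376) and Erc1 gave 0.57 (adjusted p = 0.344). With the mean over its probe sets Erc1 gave 0.18 and did not pass (adjusted p = 0.321).

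Of 18 measured genes for vesicle membrane proteins and transporters, only Slc18a2, the vesicular monoamine transporter gene, passed. It read 7.91, 8.32, 8.18 and 7.51 in phrenic, 6.61, 7.40, 7.49 and 7.43 in C3-C5, and 4.24, 5.03 and 4.52 in LMC radial arrays. It was at least 7.85-fold higher in phrenic than in LMC radial cells (3.39 ± 0.27, adjusted p = 4.2e-05) and at least 4.67-fold higher in C3-C5 than in LMC radial cells (LMC radial minus C3-C5 -2.64 ± 0.27, adjusted p = 0.000699). Phrenic minus C3-C5 was 0.75 ± 0.25 and did not pass (adjusted p = 0.194). Slc18a3, the vesicular acetylcholine transporter gene, did not pass in any pairwise comparison.

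Of 23 endocytosis genes 2 passed between phrenic and C3-C5 cells, 3 between phrenic and LMC radial cells and 0 between LMC radial and C3-C5 cells, where 4 had an unadjusted p under 0.05. Ston2, a clathrin adaptor for synaptotagmin, was lower in phrenic than in C3-C5 cells (-1.28 ± 0.15, adjusted p = 0.00108) and in LMC radial cells (-1.27 ± 0.16, adjusted p = 0.000854), while Itsn2, an endocytic scaffold gene, was higher (0.63 and 0.98, adjusted p = 0.0369 and 0.00228). Dnm3, a dynamin gene, was lower in phrenic than in LMC radial cells (-0.88, adjusted p = 0.00619). In the first comparison Itsn2 lost its call in 9 of 11 fits that left out 1 array, all but those without phrenic replicate 2 or 3 (adjusted p up to 0.117). Values raised to 5, which left its own unchanged, ended it too (0.0615). So did the replicate block (0.0709), the mean over its probe sets (0.19, adjusted p = 0.443) and the mesenchyme covariate (0.70, adjusted p = 0.352). With that covariate Ston2 missed the threshold in the first comparison (-1.35, adjusted p = 0.0626), and with the mean over its probe sets in the second (-0.51, adjusted p = 0.0612).

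Of 14 genes of dense-core vesicle cargo and processing, 4 passed between phrenic and C3-C5 cells and 4 between phrenic and LMC radial cells, and 0 passed between LMC radial and C3-C5 cells, where 3 had an unadjusted p under 0.05. Scg2 and Vgf, which encode granin-type cargo proteins, were lower in phrenic cells. Scg2 read 9.62, 9.54, 9.39 and 9.55 in phrenic arrays, from 10.18 to 10.58 in C3-C5 arrays and from 10.57 to 11.06 in LMC radial arrays; differences were -0.87 (adjusted p = 0.00648) and -1.23 (adjusted p = 0.000552). Vgf gave -1.05 and -1.49 (adjusted p = 0.018 and 0.0018). The first was lost without phrenic replicate 1 or C3-C5 replicate 2 (adjusted p up to 0.0662). Values raised to 5, which left its own unchanged, ended it too (0.057). So did the replicate block (0.0547) and the mesenchyme covariate (0.367). The first Scg2 call did not hold with that covariate either (-0.61, adjusted p = 0.379). Pcsk1, a prohormone convertase gene, was higher in phrenic cells, at least 1.46-fold in each comparison, its C3-C5 and LMC radial means being below 5 (log2 differences 1.57 and 2.29, adjusted p = 0.0114 and 0.000897). Neither Pcsk1 call held with values raised to 5 (adjusted p = 0.616 and 0.591), nor the first with the mesenchyme covariate (1.08, adjusted p = 0.469). Of 9 exocyst genes only Exoc6 passed, higher in phrenic than in LMC radial cells (0.61, adjusted p = 0.0192), a call lost without phrenic replicate 2 or LMC radial replicate 1 or 2 (adjusted p up to 0.0747) and with the Actb covariate (0.0559), and 0 of 9 Rab27 and synaptotagmin-like genes did in limma (1 with an unadjusted p under 0.05, for phrenic minus LMC radial).

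**Figure D5:**
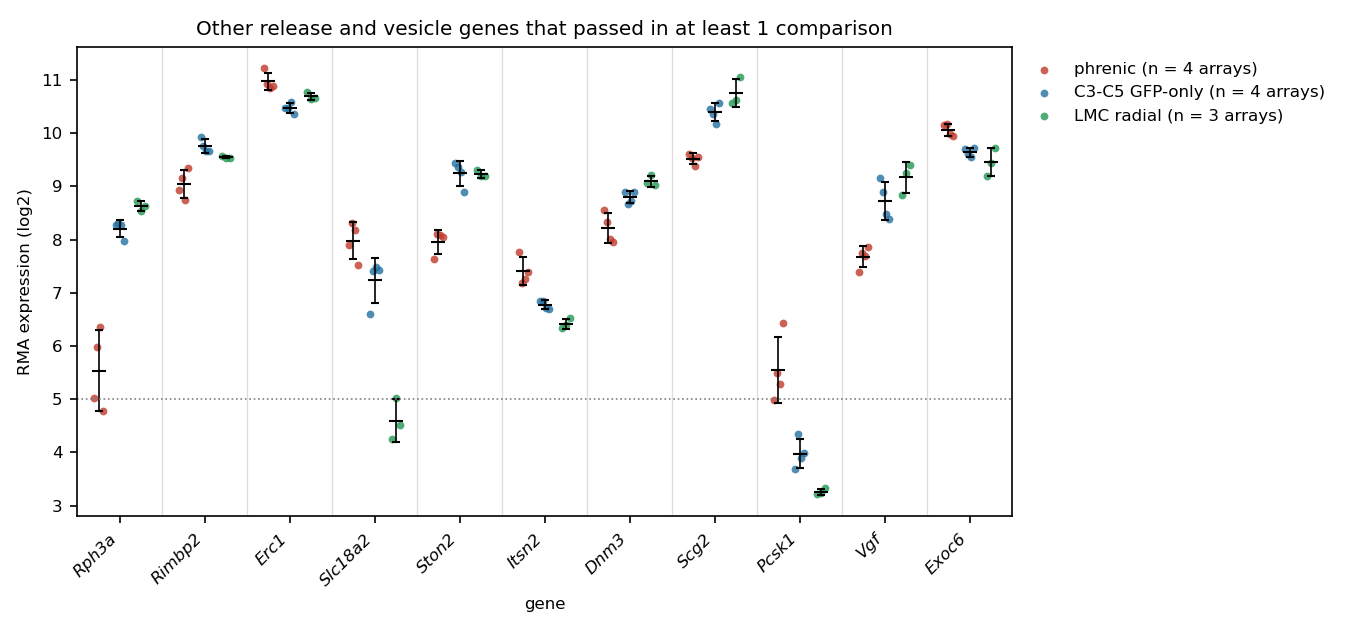
RMA expression (vertical axis, log2) of 11 other genes of the release pathway named by rule; points are arrays coloured by cell type, bars the mean ± SD and the dotted line a level of 5. Rph3a, Ston2, Scg2 and Vgf sit lower in phrenic cells, and Slc18a2 is below 5 on average in LMC radial cells only.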

How the data were processed

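RNA of sorted motor neurons was measured on 11 Affymetrix arrays. Per the submitters' processing notes the authors used RMA (version not given in the sources used here), and the deposited table holds log2 values. Groups follow the sample titles. No file column was left unmapped. Of 45101 probe sets, 64 controls were left out of the tests; 34945 of the rest have 1 symbol.

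A mean per cell type was fitted to all 45037 probe sets in limma 3.58.1 under R 4.3.3, with two-sided moderated tests and Benjamini-Hochberg adjustment over all probe sets within each comparison, counting an adjusted p under 0.05. The members and lists were chosen with earlier results of these data known. Named were the core genes, passing members (up to 10 per direction) and up to 3 passing genes per list. Folds written as at least N-fold use values raised to 5. The script was tested on simulated data. In the 4 phrenic and C3-C5 pairs of like replicate number (from the titles), arrays deviated from their group means together. Their correlations ran from 0.13 to 0.22. Unlike numbers of the same array set correlated as well. Phrenic replicate 3 with C3-C5 replicate 2 gave 0.28, and phrenic replicate 2 with C3-C5 replicate 3 gave 0.27. Phrenic replicate 1 with C3-C5 replicate 4 gave 0.19, and phrenic replicate 4 with C3-C5 replicate 1 gave 0.18. These correlations therefore cannot show that the numbers pair the arrays. Pairs of like number with LMC radial arrays did not deviate together. Alternatives were other scalings, filters, weights, priors, covariates, probe set means, blocks and array subsets; leaving out phrenic replicates 1 and 4 together was chosen after seeing the data. Promoter sequences are RefSeq's, GRCm38.p6. The number of arrays limits the precision.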

Additional observations from a re-analysis of the deposited data

Results flagged for a closer look

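In 7 of 82 groups of 4 arrays the highest or lowest array stood apart from the rest of its group by Dixon's test, where chance gives about 1 in 20. C3-C5 GFP-only replicate 1 was low for Synpr (6.39, others 7.34 to 7.50), for Syt4 (11.36, others 11.71 to 11.76) and for Slc18a2 (6.61, others 7.40 to 7.49). C3-C5 GFP-only replicate 4 was low for Rph3a (7.97, others 8.27 to 8.32). Phrenic replicate 1 was low for Rab3a (10.48, others 10.64 to 10.67) and for Ston2 (7.63, others 8.05 to 8.10). Phrenic replicate 4 was low for Syt17 (5.61, others 6.79 to 6.92).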

How the results depend on the processing

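Of 23 calls on members between 2 types, 15 held in each fit without 1 array, and 4 held under every alternative (Cadps2 in all 3 comparisons, Synpr for phrenic minus LMC radial). Of the named genes' values 0 reversed where the gene was called in the main fit or in the alternative. Changes of sign in values called in neither were not counted. Counts of passing members that moved by over 1.5 times were as follows; the cause was not tested. Phrenic minus C3-C5 (6) gave 2 in the 7 arrays with the higher 25th percentile, where fewer samples are fitted, and 3 with the mesenchyme mean as a covariate. Phrenic minus LMC radial (10) gave 4 with values below 5 raised to 5, 16 with probe set means, 3 in the 7 arrays, 6 with the Actb covariate and 18 without phrenic replicates 1 and 4. LMC radial minus C3-C5 (7) gave 2 with raised values, 15 with array weights, 1 in the 7 arrays, 4 with Actb, 3 with mesenchyme and 11 without phrenic replicates 1 and 4. Phrenic against the others (8) gave 5, 3, 5, 4 and 14 with raised values, the 7 arrays, Actb, mesenchyme and without phrenic replicates 1 and 4. LMC radial against the others (11) gave 5, 18, 3, 5 and 17 with raised values, weights, the 7 arrays, Actb and without phrenic replicates 1 and 4. C3-C5 against the others (2) gave 1, 7, 4, 0 and 1 with raised values, weights, probe set means, the 7 arrays and mesenchyme. Without 1 array the ranges, in the same order, were 5 to 7, 7 to 13, 3 to 8, 7 to 11, 7 to 14 and 1 to 3. LMC radial minus C3-C5 gave 3 without LMC radial replicate 1 and 4 without LMC radial replicate 3 or C3-C5 replicate 2 or 3; LMC radial against the others gave 7 without LMC radial replicate 1 or 2; C3-C5 against the others gave 1 without its replicate 2 or 3. Quantile normalisation changed the split of higher and lower from 7 and 1 to 6 and 2 for phrenic, from 3 and 8 to 4 and 5 for LMC radial and from 2 and 0 to 2 and 1 for C3-C5, each against the others; centring gave 6 and 3 for phrenic.

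With the replicate number as a block the counts were 7, 13, 8, 10, 12 and 4. Between phrenic and C3-C5 cells the block changed no call on a named gene other than those of Rab3c, Erc1, Itsn2 and Vgf. Whether the numbers pair these arrays is not known. Pairs with LMC radial arrays had correlations from -0.08, and over 0.1 in 0 of 6.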
